A study of Mus musculus with 12 samples.

Results

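The genes described here encode the proteins of the cytosolic ribosome. They were chosen by name: protein-coding genes whose mouse symbol is Rpl or Rps followed by a number, with or without a closing a or x, together with Rplp0, Rplp1, Rplp2 and Rpsa. Pseudogenes were left out. The rule took in 76 of the 56941 genes of the deposited table, 46 of the large subunit and 30 of the small subunit. All 76 passed the filter on low counts. The rule itself uses no measured value, but these genes were chosen with earlier results of these data known.

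RNA came from CH12F3-2A cells, a mouse B lymphoma line with surface IgM in which switching to IgA can be induced. The cells took up a plasmid, pX459, with Cas9, puromycin resistance and a guide, which was non-targeting in the control arm (sgCtr) and aimed at Nop16 in the other (sgNop16). Transfected cells, in both arms, were selected with puromycin for 72 h, and no cloning step is described. They were then left without stimulation (no) or kept for 24 h with CIT, which combines anti-CD40L at 1 μg/ml, mouse IL-4 at 20 ng/ml and human TGF-β at 1 ng/ml. Each of the 4 groups (sgCtr_no, sgCtr_CIT, sgNop16_no and sgNop16_CIT) had 3 libraries, which the submitters call biological replicates. With 1 guide against Nop16, effects of the guide other than on Nop16 cannot be told apart from effects of Nop16. The series was set up to study the part of NOP16 in switching.

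As background, the small ribosomal subunit reads the messenger RNA and the large subunit joins the amino acids. Both are assembled in the nucleolus from ribosomal RNA and roughly equal numbers of each protein, so these genes are transcribed at high and similar levels. Their messenger RNAs begin with a C followed by a run of pyrimidines, the terminal oligopyrimidine or TOP element, through which mTORC1 and LARP1 set how much of each is translated. NOP16 itself is a factor of large subunit assembly. Activated B cells enlarge and make more ribosomes before they divide and secrete antibody.

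Library totals lay between 38866418 and 48615177 counts. Levels are CPM, counts scaled to a common library size with TMM factors, which lay between 0.985 and 1.01. A gene is called here where the adjusted p of edgeR's quasi-likelihood test, over 16794 genes and all 12 libraries, was under 0.05. A value after ± is the standard deviation over 3 libraries, or the standard error of the fit where SE is written. The targeted gene gave 104, 108 and 107 CPM in sgCtr_no and 85.9, 82.4 and 88.6 CPM in sgNop16_no, and 78.8, 73.1 and 79.3 against 64.6, 66.3 and 66.2 CPM after CIT. In each state all 3 sgNop16 libraries were lower, by 19.4% and 14.7% in the fit. The 7 B cell markers summed to 4073 to 4134 CPM in sgCtr_no, 4007 to 4117 in sgCtr_CIT, 3709 to 3753 in sgNop16_no and 3724 to 3825 in sgNop16_CIT, lower with sgNop16 in both states without overlap. Ighm alone had a mean of 2284 CPM over all libraries, the highest of the 7. T cell, fibroblast and erythroid markers summed to at most 1.44, 0.919 and 2.59 CPM, and Col1a2, Pdgfra and Dcn were at 0. Macrophage markers summed to 1.20 to 2.12 CPM without CIT and 4.34 to 9.80 CPM after it. Most of that sum was Csf1r, and Lyz2 and C1qa were at 0; its part in the differences after CIT was not tested.

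Start-site sequences were read for the pyrimidine start by which transcripts of this class are known. RefSeq windows on GRCm38.p6, from 250 bases before to 50 after an annotated start, were at hand for 56 of the genes (66 windows). Genes without one included Rpl17, Rpl21, Rpl23a, Rpl29, Rpl3, Rpl30, Rpl32, Rpl36, Rpl7, Rpl8, Rplp1, Rps14, Rps20, Rps27a and Rps29. The lines give 10 bases before and 20 from the start, 5′ to 3′. Capitals mark the run of C and T that opens the transcript. The first 6 genes have such a run, and Rpl38 is also the gene with the largest called fall after CIT with sgCtr.
Rpl38, chr11:114668570-114668599, plus strand: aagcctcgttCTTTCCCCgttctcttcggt
Rpl28, chr7:4792955-4792984, plus strand: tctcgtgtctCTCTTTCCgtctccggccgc
Rpl35a, chr16:33056472-33056501, plus strand: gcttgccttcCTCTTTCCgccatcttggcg
Rpl15, chr14:18270967-18270996, minus strand: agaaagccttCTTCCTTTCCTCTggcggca
Rps6, chr4:86857348-86857377, minus strand: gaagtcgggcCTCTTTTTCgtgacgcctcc
Rps18, chr17:33955646-33955675, minus strand: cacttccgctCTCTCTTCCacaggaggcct
The next 4 windows hold no such run at the annotated start. They belong to Rps3, Rpl24, Rps16 and Rplp0, which are among the genes named below for their differences.
Rps3, chr7:99483690-99483719, minus strand: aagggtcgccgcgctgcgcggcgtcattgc
Rpl24, chr16:55966265-55966294, plus strand: gctgttgctaggaaacagactgggcgctcg
Rps16, chr7:28350679-28350708, plus strand: ttctgtcgtgacgtagcactcaatgcgcct
Rplp0, chr5:115559457-115559486, plus strand: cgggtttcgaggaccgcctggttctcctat
A C at the start followed by at least 4 C or T, read on the transcribed strand, opened 19.7% of the 66 windows and 2.51% of all 32851 windows in the table. It was present in 7 of 34 large subunit genes and 6 of 22 small subunit genes with a window. The annotated start can lie some bases from the one used in these cells, so no match says only that these letters are not at that position. CCGGAAG, the core of the site of ETS factors such as GABP, was found on either strand of 36.4% of the windows of these genes and 8.86% of all windows. The corresponding shares were 16.7% and 6.34% for AAGATGG, the core of the YY1 site, and 12.1% and 7.15% for CACGTG, the E box bound by MYC. For GGGCGG, the SP1 box, they were 60.6% and 35.7%, and for TATAAA, read forward, 7.58% and 8.32%. The 13 genes with the pyrimidine start and the 43 others with a window had median log2 differences of -0.09 and -0.10 after CIT with sgCtr, and -0.05 and -0.06 with sgNop16.

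The share of all counts on the 76 genes was 6.88 to 7.05% in sgCtr_no and 6.66 to 6.78% in sgCtr_CIT, with means of 6.98 ± 0.0841% and 6.70 ± 0.0698% (SD, n = 3). It was 6.87 to 6.97% in sgNop16_no and 6.58 to 6.71% in sgNop16_CIT, with means of 6.90 ± 0.0572% and 6.66 ± 0.0681%. With either guide, all 3 CIT libraries were below all 3 unstimulated ones. Between guides the ranges overlapped in both states. All values are relative to the other RNA of a library. Fewer transcripts of these genes per cell, more of other RNA per cell and a different mix of cells therefore cannot be told apart. A gene said below to fall or rise did so in this relative sense.

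Both subunits took part in the lower share. Large subunit genes held 4.08 to 4.23% of counts in sgCtr_no and 3.92 to 4.04% in sgCtr_CIT, and small subunit genes 2.80 to 2.82% and 2.72 to 2.74%. With sgNop16 the large subunit share was 4.08 to 4.16% without and 3.92 to 4.02% with CIT, and the small subunit share 2.73 to 2.81% and 2.66 to 2.69%. In none of these 4 comparisons did the libraries overlap. The ratio of large to small subunit counts ranged over 1.455 to 1.501, 1.434 to 1.476, 1.463 to 1.515 and 1.475 to 1.512 in sgCtr_no, sgCtr_CIT, sgNop16_no and sgNop16_CIT. The ranges of this ratio in the 2 groups after CIT met only at their edges. After CIT the small subunit share was lower with sgNop16 than with sgCtr without overlap, while the large subunit shares overlapped. With counts on near-identical copies (described below) added, these small subunit shares nearly met. They were then 3.0204 to 3.0638% in sgCtr_CIT and 2.9583 to 3.0198% in sgNop16_CIT.

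Levels can be compared between genes only per length. Counts were divided by the length of the shortest principal coding transcript and scaled to the same total over all genes with a length, as in TPM. On this scale the median was 1799.9 for the large and 2468 for the small subunit genes, over all 12 libraries. The middle 50% of the 76 genes lay between 1512 and 2653. The 5 highest were Rplp1 (5291), Rpl41 (5076), Rplp0 (3617), Rps2 (3588) and Rps14 (3227). Rplp1 and Rplp0 belong to the stalk that recruits elongation factors, whose Rplp1 and Rplp2 proteins are present in more than a single copy per ribosome, and Rpl41 encodes the shortest ribosomal protein. In sgCtr_no Rplp1 measured 5124 ± 190.1 and Rpl41 5220.0 ± 312, a difference within their spread. Rplp0 (3576 ± 18.02) and Rps2 (3686 ± 90.3) were also close. At the other end stood Rps18 (219.7), Rps20 (382), Rpl21 (419), Rpl17 (633) and Rpl39 (902). The value of Rps20 rests on an annotated length of 3706 bases, the longest of the 76. The order at the top depends on the length used as well. With the median transcript length of each gene, the highest value was 5544 in the small and 5235 in the large subunit, against 3588 and 5291 above.

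**Figure D1:**
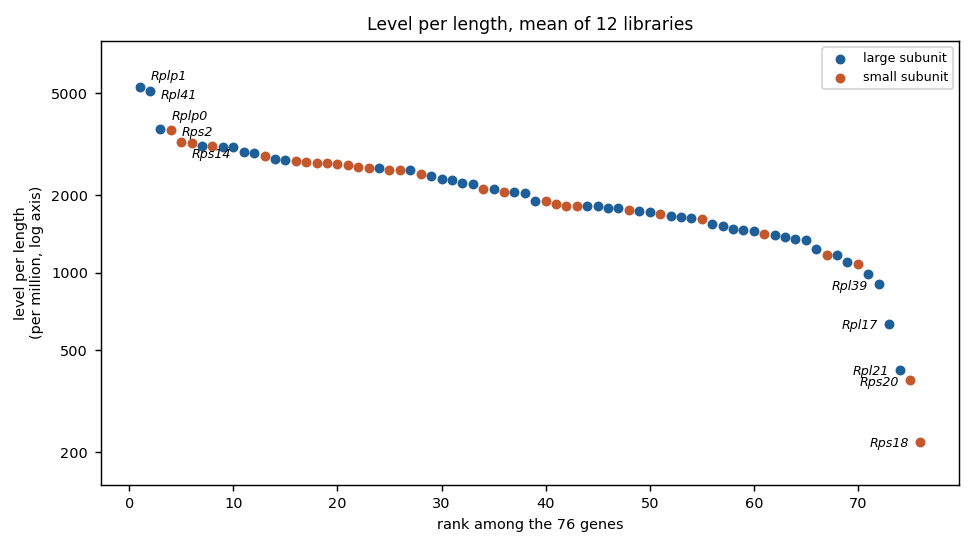
Level per length (counts per kilobase of transcript, scaled as TPM, log axis) of each of the 76 genes against its rank, as the mean of 12 libraries, with large and small subunit genes in different colours. Most genes lie within the range of 1512 to 2653 or close to it, while Rps18, Rps20, Rpl21 and Rpl17 lie far below.

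Low levels of some members go with counts on near-identical copies elsewhere in the genome. Ribosomal protein genes have many processed pseudogenes, and the table lists rows for them. Here a copy is another row of which a transcript matches at least 80% of a member's coding sequence at 95% identity or more. Such copies were listed for 72 of the 76 genes, 560 copies in all. For 35 genes their counts came to less than 5% of the gene's own, and for 17 to more than 20%. Rps18, at the lower end of the small subunit per length, had 67.2 CPM on its own row and 1064 CPM on 5 copies, mostly on Gm10260 and Gm11361. The own rows of Rpl21 and Rpl17 held 206 and 268 CPM, and their copies 636 and 526 CPM.

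The split between a gene and its copies also differed between libraries of one group. The median coefficient of variation within groups was 2.45% over the 76 genes, and 64 were under 5%. It exceeded 10% for 6 genes, Rpl17, Rps27a, Rpl7a, Rpl30, Rps27 and Rpl21. Rpl17, at the rim of the exit tunnel, measured 132, 271 and 341 CPM on its own row in sgCtr_no, and 815, 818 and 818 CPM with its copies added. Its spread within groups fell from 37.7% to 1.63% once copies were added. Rpl7a measured 303, 697 and 507 CPM in sgCtr_CIT and 1313, 1306 and 1313 CPM with copies, and its spread went from 28.4% to 1.24%. Own values of both genes therefore differed between replicates while the sums were almost level. Rps27a, which encodes a ribosomal protein fused to ubiquitin, kept a spread of 10.7% with copies against 30.4% without. For Rps18 the spread rose from 5.64% to 11.6%, as Gm10260 gave 662, 686 and 228 CPM in sgCtr_no, low in 1 library. Differences and counts below are those of the own row, and where the sum with copies changes a call this is said beside it.

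**Figure D2:**
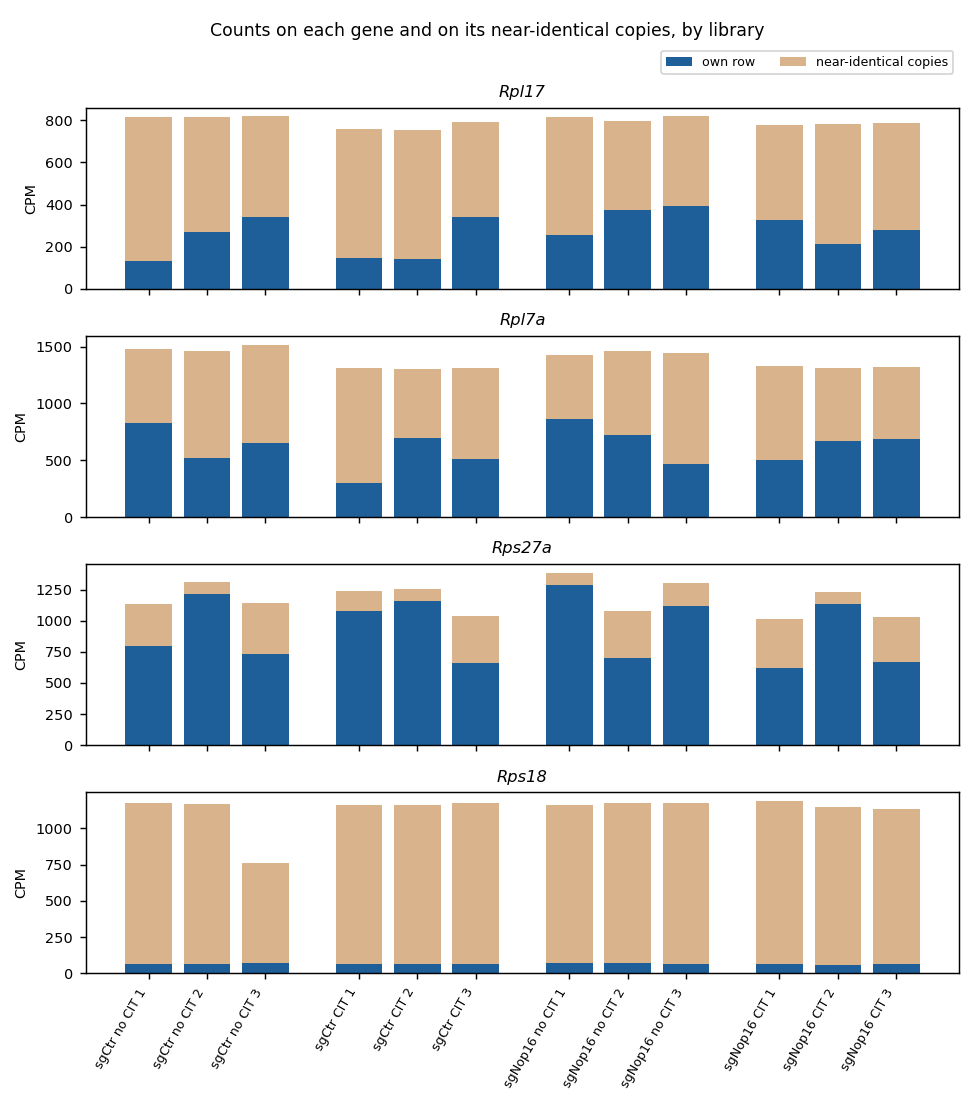
CPM of Rpl17, Rpl7a, Rps27a and Rps18 in each of the 12 libraries, stacked as counts on the gene's own row (dark) and on its near-identical copies (light), with axes from 0. For Rpl17 and Rpl7a the dark part changes from library to library while the whole bar is nearly level, and for Rps18 the light part makes up most of the bar.

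The first comparison asks how stimulation changed these genes in cells with the control guide. After CIT 42 of the 76 genes were lower and 1 was higher, against 21.1% lower and 20.6% higher among all genes tested. Genes of similar abundance give a closer background: of the 1003 genes with at least 200 CPM, which include 75 of the 76, 56.6% were lower and 23.1% higher. The share of members that fell was thus near that of abundant genes as a whole. By subunit, 29 of 46 large and 13 of 30 small subunit genes fell. The differences were small. The median log2 difference was -0.10 over the 76 genes, -0.11 for the large and -0.07 for the small subunit, beside 0.02 over all genes and -0.12 over the abundant ones. In 49 of the 76 all 3 CIT libraries lay below all 3 unstimulated ones, and in 1 above them, against 25% and 25.5% of all genes and 582 and 244 of the 1003 genes with at least 200 CPM.

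Rps20, a protein of the small subunit head, was the 1 member called higher. With sgCtr it gave 748, 760.0 and 759.8 CPM in the unstimulated libraries and 816, 782 and 831 CPM after CIT. All 3 CIT libraries were higher, and the level rose by 7.13% (log2 difference 0.10 ± 0.02 SE, adjusted p 0.0022). With sgNop16 it gave 744, 738 and 725 CPM in the unstimulated libraries and 802, 769 and 798 CPM after CIT, again with no overlap, and rose by 7.39% (log2 difference 0.10 ± 0.02 SE, adjusted p 0.0019). Rps20 was the only member called higher in either response, and both calls held in all alternatives run.

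Among the genes called with sgCtr the largest fall was that of Rpl38, a small large-subunit protein known for its part in translating Hox messenger RNAs. With sgCtr it gave 316, 307 and 278 CPM in the unstimulated libraries and 249, 230.4 and 257 CPM after CIT. Every CIT library was below every unstimulated one, and Rpl38 fell by 18.4% (log2 difference -0.29 ± 0.05 SE, adjusted p 7e-05). Rpl36 followed with 514, 498 and 492 CPM in the unstimulated libraries and 418, 403 and 451 CPM after CIT, and fell by 15.4% (log2 difference -0.24 ± 0.03 SE, adjusted p 3.7e-06). Rpl8, which lines the peptidyl transferase region, had tighter replicates with 1532, 1522 and 1564 CPM in the unstimulated libraries and 1332, 1343 and 1324 CPM after CIT, and fell by 13.4% (log2 difference -0.21 ± 0.02 SE, adjusted p 4.8e-09). Neither gene's libraries overlapped between the states. Next among the members named here came Rpl27, Rpl24, Rpl18 and Rps3, with log2 differences between -0.19 and -0.18 and no overlap. Rps3, at the entry of the messenger RNA channel, gave 1318, 1293 and 1372 CPM in the unstimulated libraries and 1164, 1184 and 1177 CPM after CIT.

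By role, 1 of 4 genes of the stalk and its base was called. Rplp0, which carries the stalk, gave 2742, 2686 and 2718 CPM in the unstimulated libraries and 2522, 2548 and 2531 CPM after CIT, and fell by 6.70% (log2 difference -0.10 ± 0.02 SE, adjusted p 2.1e-05). Rplp1 and Rplp2, the acidic proteins that bind it, had log2 differences of -0.01 ± 0.03 and -0.01 ± 0.06 SE, and their libraries overlapped. Rpl12, at the base beside it, was not called (log2 difference 0.0006 ± 0.03 SE, adjusted p 0.99). Rpl5 and Rpl11, which bind the small 5S ribosomal RNA and, when free, the p53 inhibitor MDM2, were not called on their own rows (log2 difference -0.07 ± 0.03 SE, adjusted p 0.078 for Rpl5, and log2 difference -0.05 ± 0.02 SE, adjusted p 0.06 for Rpl11). With copies added both were called lower (log2 difference -0.10 ± 0.02 SE, adjusted p 0.0025 for Rpl5, and -0.06 ± 0.02 SE, adjusted p 0.039 for Rpl11). In the peptidyl transferase region Rpl8 of 3 genes was called on its own row, while Rpl10 (log2 difference -0.05 ± 0.02 SE, adjusted p 0.065; with copies -0.06 ± 0.02 SE, adjusted p 0.035, called lower) and Rpl3 (log2 difference 0.04 ± 0.02 SE, adjusted p 0.14) were not. At the exit tunnel and its rim 5 of 8 genes fell, Rpl4, Rpl19, Rpl23a, Rpl31 and Rpl35. The call of Rpl35 was lost without replicate 1 of either group (adjusted p up to 0.078). Along the messenger RNA channel and decoding site 4 of 8 fell, Rps2, Rps3, Rps26 and Rpsa. Rpsa, the most abundant small subunit gene by CPM, gave 2622, 2574 and 2645 CPM in the unstimulated libraries and 2347, 2442 and 2354 CPM after CIT and fell by 8.89% (log2 difference -0.13 ± 0.02 SE, adjusted p 3.5e-06). Rps6, the substrate of the S6 kinases, gave 1362, 1297 and 1332 CPM in the unstimulated libraries and 1255, 1246 and 1234 CPM after CIT and fell by 6.42% (log2 difference -0.10 ± 0.02 SE, adjusted p 0.0012). Of a chosen set of 12 genes mutated in Diamond-Blackfan anaemia 4 fell on their own rows, among them Rps26, Rpl35a and Rpl15. Rps19, the best known of them, was not called (log2 difference -0.07 ± 0.04 SE, adjusted p 0.2). Rpl22, needed for lymphocyte development, fell by 8.29% (log2 difference -0.12 ± 0.03 SE, adjusted p 0.0021).

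Copies changed other calls too. Rpl17 on its own row had a log2 difference of -0.25 ± 0.45 SE and was not called, while the sum with its copies gave -0.09 ± 0.02 (adjusted p 0.0023). Likewise Rpl7a changed from -0.41 ± 0.34 to -0.18 ± 0.02 SE, which was called. Rpl21, Rpl30 and Rps12 were also called lower with copies added and not without, and Rpl23 lost its call (log2 difference -0.04 ± 0.02 SE, adjusted p 0.16). With all copies added 49 members were called lower. Rps27a was not called either way (0.08 ± 0.36 SE on its own row).

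**Figure D3:**
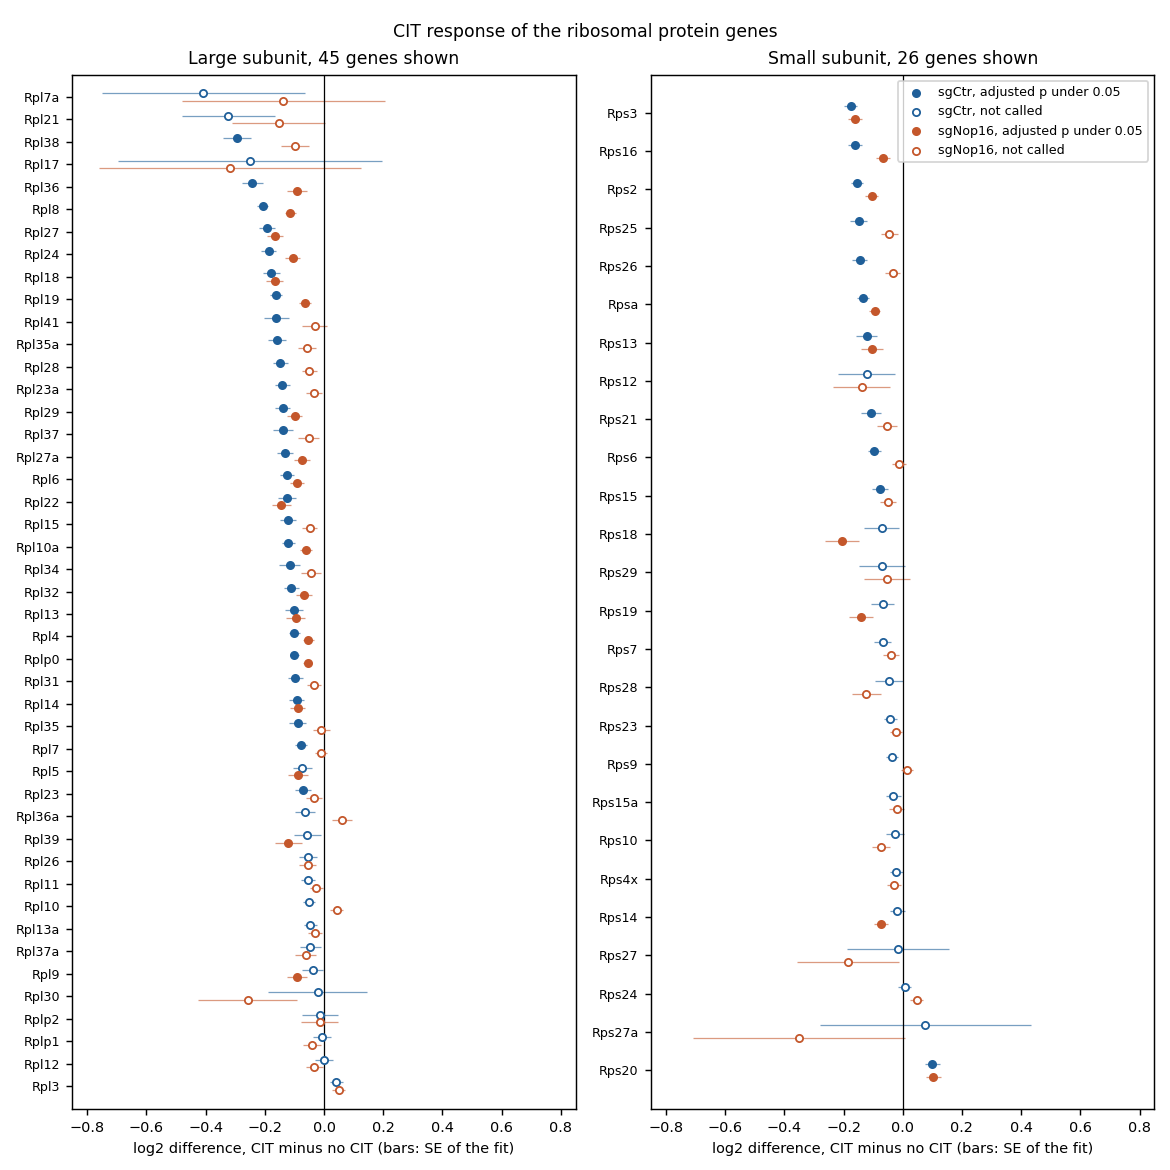
Log2 difference between CIT and unstimulated libraries for 71 of the genes, by subunit, with sgCtr in blue and sgNop16 in orange, bars giving the standard error and filled points an adjusted p under 0.05. Nearly all points lie left of 0, most within 0.2, and Rps20 alone is filled on the right.

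The same stimulus with the Nop16 guide lowered 29 of the 76 genes and raised 1, Rps20, against 18.5% lower and 19.3% higher among all genes, and 51.3% lower and 22.7% higher among genes with at least 200 CPM. The called genes were 19 of the large and 10 of the small subunit. The median log2 difference was -0.06, the same in both subunits to the second decimal, beside -0.09 over abundant genes. In 30 genes the CIT libraries lay below the unstimulated ones without overlap and in 4 above, against 22.7% and 24.3% of all genes and 545 and 245 of the 1003 genes with at least 200 CPM. The 2 responses share no library. They had 23 lower genes in common, 54.8% of the list with sgCtr and 79.3% of that with sgNop16, and 28 genes were called lower in neither.

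Rpl18 and Rpl27, of the large subunit, and Rps3 were among the largest falls with either guide. In sgNop16 cells Rpl18 gave 876, 890.0 and 855 CPM in the unstimulated libraries and 794, 754 and 787 CPM after CIT, and fell by 10.9% (log2 difference -0.17 ± 0.03 SE, adjusted p 6.3e-05). Rpl27 gave 536, 539 and 550.1 CPM in the unstimulated libraries and 484, 477 and 489 CPM after CIT, and fell by 10.8% (log2 difference -0.17 ± 0.03 SE, adjusted p 2.2e-05). The CIT libraries of both genes lay below all unstimulated ones. Rps3 fell by 10.6% (log2 difference -0.16 ± 0.02 SE, adjusted p 3.8e-06) and Rpl22 fell by 9.52%. Rpl38 gave 304, 279 and 280.4 CPM in the unstimulated libraries and 276, 269 and 262 CPM after CIT; its libraries did not overlap, but it was not called (log2 difference -0.10 ± 0.05 SE, adjusted p 0.12). Rpl36 and Rpl8 fell by 6.09% and 7.61%, but Rpl36 lost its call without replicate 1 or 2 of sgNop16_no or 1 or 3 of sgNop16_CIT (adjusted p up to 0.15).

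Calls made only with sgNop16 were those of Rpl39, Rpl5, Rpl9, Rps14, Rps18 and Rps19. On the sums with copies, Rpl5 and Rpl39 were not called (log2 difference -0.06 ± 0.02 SE, adjusted p 0.058 for Rpl5, and -0.12 ± 0.05 SE, adjusted p 0.051 for Rpl39), and Rpl5 was called in the sgCtr response. Rpl14 also lost its call with copies (-0.05 ± 0.02 SE, adjusted p 0.069), and genes that gained one included Rpl7a, Rpl15, Rpl30 and Rps10. For the genes called only with sgNop16 on their own rows, the difference from the sgCtr response was not past the threshold in the interaction test given below. Rps19 gave 917, 894 and 886 CPM in the unstimulated libraries and 857, 768 and 823 CPM after CIT, and fell by 9.29% (log2 difference -0.14 ± 0.04 SE, adjusted p 0.012). Rps18 gave 74.9, 74.7 and 64.6 CPM in the unstimulated libraries and 64.8, 57.9 and 63.2 CPM after CIT on its own row; it fell by 13.3% there (log2 difference -0.21 ± 0.06 SE, adjusted p 0.0074), although 1 unstimulated library lay just below 1 CIT library. With copies added its log2 difference was -0.02 ± 0.14 SE and was not called, and without sgNop16_CIT replicate 2 the own row gave an adjusted p of 0.06. Rpl5 (log2 difference -0.09 ± 0.03 SE, adjusted p 0.04), Rpl9 (log2 difference -0.09 ± 0.03 SE, adjusted p 0.045) and Rpl39 (log2 difference -0.12 ± 0.05 SE, adjusted p 0.046) lost their calls in turn without 3, 4 and 4 single libraries, as did Rps14 without 3, with adjusted p up to 0.28. These were replicate 2 of sgNop16_CIT for all 4 genes, replicate 3 of sgNop16_CIT for Rpl9, Rpl39 and Rps14, and replicate 1 for Rpl5. Of sgNop16_no they were replicate 1 for Rpl9 and Rpl39, replicate 2 for Rpl39 and replicate 3 for Rpl5, Rpl9 and Rps14. Rplp0 fell by 3.79% (log2 difference -0.06 ± 0.02 SE, adjusted p 0.0083) and Rpsa fell by 6.41% (log2 difference -0.10 ± 0.02 SE, adjusted p 0.00029). Rplp1 (-0.04 ± 0.03 SE), Rplp2 (-0.02 ± 0.06), Rpl11 (-0.03 ± 0.02), Rps6 (-0.01 ± 0.02), Rpl10 (0.04 ± 0.02), Rpl3 (0.05 ± 0.02) and Rps27a (-0.35 ± 0.36) were not called. The count of lower calls went down to 16 without sgNop16_CIT replicate 2.

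Between guides few of the genes were called. In unstimulated cells 5 were lower with sgNop16 and 0 higher, against 1.92% lower and 2.14% higher among all genes. Among genes with at least 200 CPM the shares were 9.57% and 7.98%. At an unadjusted p under 0.05 in edgeR, 21 members were lower and 1 was higher, Rplp0, which DESeq2 called. The corresponding counts were 1221 and 1250 over all 16794 genes, and 241 and 141 over the 1003 abundant genes. The median log2 difference was -0.04, -0.04 in the large and -0.04 in the small subunit, beside 0.0003 over all genes and -0.02 over abundant ones. In 20 genes the sgNop16 libraries were below the sgCtr libraries without overlap and in 1 above, against 9.4% and 9.44% of all genes and 245 and 151 of the 1003 genes with at least 200 CPM. Among the genes called were Rps16, Rpl3, Rps6 and Rpl10a, and with copies added Rpl28 was called as well (log2 difference -0.09 ± 0.02 SE, adjusted p 0.038). B cell markers mostly lay lower with the same guide: 3 of 7 were called lower without CIT (Cd79b, Ms4a1 and Ighm) and 4 after it (Ebf1 too). In each state 0 were called higher and 2 of 7 had a log2 difference above 0. After CIT 1 marker was higher with sgNop16 without overlap. Their part in the guide differences of these genes was not tested.

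Rps16, whose tail reaches the transfer RNA in the small subunit, gave 723, 703 and 694 CPM with sgCtr and 663, 649 and 646 CPM with sgNop16. All sgNop16 libraries were lower, and Rps16 was 7.62% lower with sgNop16 (log2 difference -0.11 ± 0.02 SE, adjusted p 0.0047). Rpl3, at the peptidyl transferase center and an early partner of large subunit assembly, gave 1742, 1689.7 and 1791 CPM with sgCtr and 1593, 1606 and 1669 CPM with sgNop16, and was 6.77% lower with sgNop16 (log2 difference -0.10 ± 0.02 SE, adjusted p 0.0073). The groups did not overlap in Rpl3. Rps6 gave 1362, 1297 and 1332 CPM with sgCtr and 1219, 1238 and 1283 CPM with sgNop16, and was 6.32% lower with sgNop16 (log2 difference -0.09 ± 0.02 SE, adjusted p 0.016). Rpl10a, of the stalk on the other flank of the large subunit, was 5.63% lower with sgNop16 (log2 difference -0.08 ± 0.02 SE, adjusted p 0.029).

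None of these 4 calls held in every alternative. Leaving out sgCtr_no replicate 1 ended the call of Rps16 (adjusted p 0.052). Rpl3 lost its call without sgCtr_no replicate 3, sgNop16_no replicate 1 or sgNop16_no replicate 2 (up to 0.076). Rps6 lost it without replicates 1 or 3 of sgCtr_no or 1 or 2 of sgNop16_no (up to 0.14), and Rpl10a without any single library of the 6 (up to 0.13). Other members followed in every comparison were not called here. Their log2 differences were 0.04 for Rplp0, 0.05 for Rplp1, 0.02 for Rplp2, -0.05 for Rpl5, -0.01 for Rpl11, -0.04 for Rpsa, -0.01 for Rps19, -0.07 for Rpl10, -0.09 for Rpl22, -0.04 for Rps20 and 0.17 for Rps27a, with standard errors of 0.02 to 0.06 except for Rps27a (0.36).

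After CIT 1 gene was higher and 5 were lower with sgNop16, against 4.05% and 3.07% of all genes and 15.2% and 10.8% of genes with at least 200 CPM. The gene that was higher was Rplp0. It gave 2522, 2548 and 2531 CPM with sgCtr and 2669.8, 2708 and 2690.4 CPM with sgNop16. Every sgNop16 library was above every sgCtr library, and Rplp0 was 6.15% higher with sgNop16 (log2 difference 0.09 ± 0.02 SE, adjusted p 0.0015), a call that held in all alternatives. Without stimulation it gave 2742, 2686 and 2718 CPM with sgCtr and 2777, 2805 and 2804 CPM with sgNop16, also without overlap, but was not called (log2 difference 0.04 ± 0.02 SE, adjusted p 0.19). The genes of the proteins it anchors were not called, with 0.01 ± 0.03 SE for Rplp1 and 0.02 ± 0.06 for Rplp2.

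Rpl3, Rpl9, Rpl22 and Rps4x were among the genes lower after CIT with sgNop16. Rpl3 gave 1799, 1786 and 1789 CPM with sgCtr and 1674, 1688 and 1678 CPM with sgNop16, and was 6.20% lower with sgNop16 (log2 difference -0.09 ± 0.02 SE, adjusted p 0.0098). For Rpl3 the sgNop16 libraries lay below the sgCtr libraries within each state, and the states share no library. Rpl3 kept its call after CIT in all alternatives. Rpl22 gave 430.1, 419 and 428 CPM with sgCtr and 396, 383 and 402 CPM with sgNop16, and was 7.52% lower with sgNop16 (log2 difference -0.11 ± 0.03 SE, adjusted p 0.028). Rpl9 was 7.99% lower with sgNop16 (log2 difference -0.12 ± 0.03 SE, adjusted p 0.04), and Rps4x, the X-linked form of its protein, was 5.41% lower with sgNop16 (log2 difference -0.08 ± 0.02 SE, adjusted p 0.035). Rpl22 and Rps4x each lost the call without any of 4 single libraries and Rpl9 without any of 5, with adjusted p up to 0.23. For Rpl22 these were sgCtr_CIT replicates 1 and 3 and sgNop16_CIT replicates 1 and 2, for Rps4x sgCtr_CIT replicates 1 and 2 and sgNop16_CIT replicates 1 and 3, and for Rpl9 all 3 of sgCtr_CIT and sgNop16_CIT replicates 2 and 3. With copies added Rpl9 was not called (-0.09 ± 0.03 SE).

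The median log2 difference after CIT was 0.0021 over the 76 genes, 0.02 over the large and -0.02 over the small subunit. It was 0.0082 over all genes and 0.0127 over abundant ones. Of the large subunit genes 32 of 46 lay above 0, and of the small subunit genes 9 of 30, against 8705 of all 16794 and 569 of the 1003 abundant genes. In 6 members the sgNop16 libraries were above the sgCtr libraries without overlap and in 12 below, against 13.2% and 10.9% of all genes and 284 and 195 of the 1003. Few of the members' single values passed the test. Among members not called, the log2 difference was -0.07 for Rpl5, 0.02 for Rpl11, 0.0009 for Rpsa, -0.01 for Rps6, -0.09 for Rps19, 0.03 for Rpl10, -0.04 for Rps20 and -0.25 for Rps27a.

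**Figure D4:**
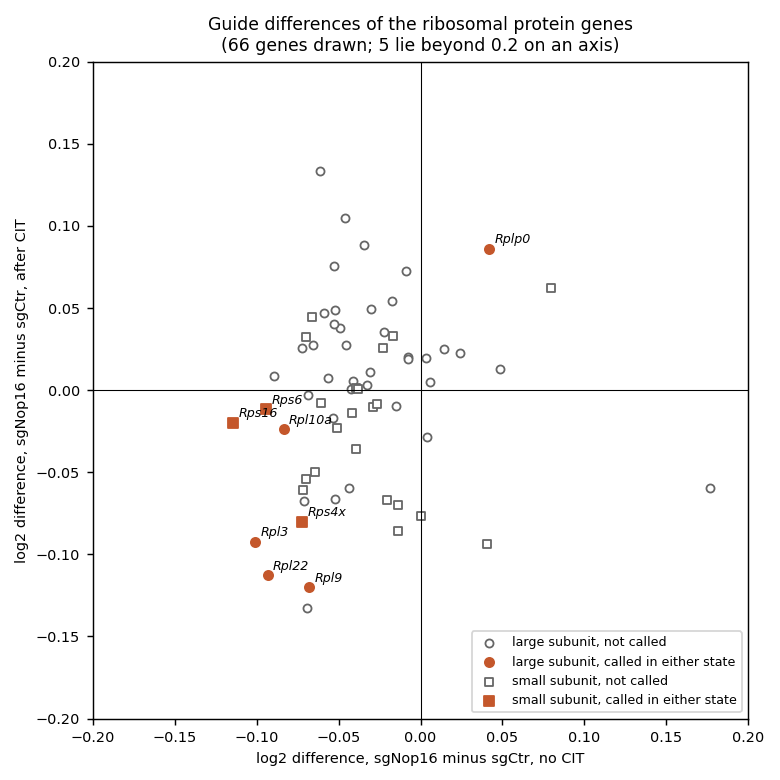
Log2 difference between sgNop16 and sgCtr for 66 of the genes, without CIT (horizontal) and after CIT (vertical), with large subunit genes as circles, small subunit genes as squares and called genes filled and named. Rpl3 lies low on both axes and Rplp0 lies high on both. Rpl17, Rpl21, Rpl7a, Rps27 and Rps27a fall outside the axes. They are among the 6 genes whose own rows had a coefficient of variation within groups over 10%.

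The last comparison tested whether the response to CIT differed between guides. The sgCtr_no libraries enter this test, the CIT response with sgCtr and the guide difference without CIT, so these are not separate results. By edgeR 0 members were called in either direction, against 1.23% higher and 1.6% lower among all genes, and 8.08% and 7.58% among genes with at least 200 CPM. At an unadjusted p under 0.05 there were 16 genes with a less negative response in sgNop16 cells and 0 with a more negative one. Over all 16794 genes the corresponding counts were 1212 above and 1027 below 0, and over the 1003 abundant genes 253 and 137. DESeq2 called 3, Rpl8, Rpl19 and Rpl10, all in that direction. The 4 smallest p in edgeR were those of Rpl8, Rpl19, Rpl36 and Rps26. Rpl8 was 13.4% lower after CIT with sgCtr and 7.61% lower with sgNop16 (log2 difference 0.09 ± 0.03 SE, adjusted p 0.067). Rpl19 gave 1296, 1276 and 1298 CPM in the unstimulated libraries and 1142, 1149 and 1167 CPM after CIT with sgCtr. With sgNop16 it gave 1204, 1242 and 1235 CPM in the unstimulated libraries and 1157, 1162 and 1201 CPM after CIT (log2 difference 0.10 ± 0.03 SE, adjusted p 0.081). The response was larger in sgCtr cells in these libraries, by less than the test could call. For Rps26, which contacts messenger RNA at the exit side, the interaction was 0.11 ± 0.04 SE and for Rpl36 0.15 ± 0.05. Single calls appeared without sgCtr_no replicate 3 (Rpl38), sgCtr_CIT replicate 3 (Rpl36) or sgNop16_CIT replicate 2 (Rps26).

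**Figure D5:**
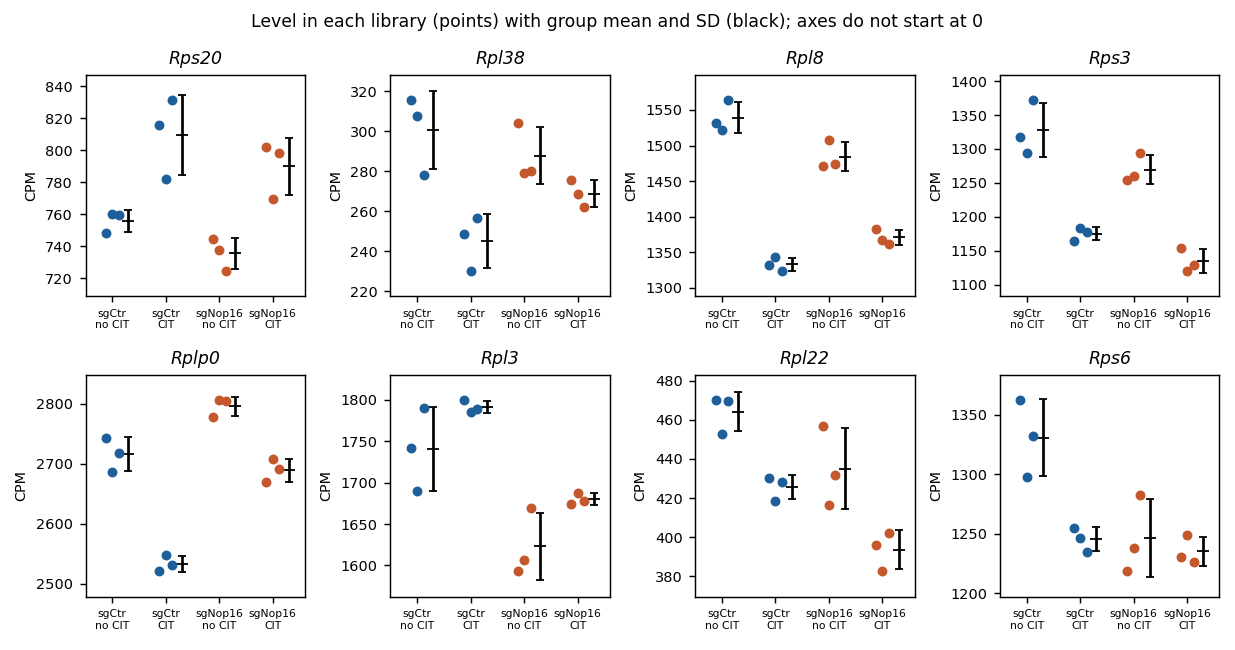
CPM of 8 named genes in each library (points, 3 per group) with the group mean and standard deviation in black, on axes that do not start at 0. Rps20 is higher and Rpl38, Rpl8 and Rps3 are lower after CIT with both guides, Rpl3 is lower with sgNop16 in both states, and Rplp0 after CIT is higher with sgNop16.

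Among members followed in every comparison, interaction values with their SE were -0.01 ± 0.05 for Rpl5, 0.03 ± 0.03 for Rpl11, 0.04 ± 0.02 for Rplp0, -0.04 ± 0.04 for Rplp1, 0.04 ± 0.03 for Rpsa, 0.08 ± 0.03 for Rps6, -0.07 ± 0.06 for Rps19, 0.09 ± 0.03 for Rpl10, -0.02 ± 0.04 for Rpl22 and -0.43 ± 0.50 for Rps27a. None passed the threshold. For Rplp2, Rps20 and Rpl3 they were near 0, at -0.0011, 0.0036 and 0.0088.

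Genes related to the members were looked at through separate lists. The naming rule leaves out some cytosolic ribosomal protein genes, such as Rps3a1 and Fau. Neither was called in any comparison. Of the 3 such genes tested, 2 had a log2 difference above 0 and 1 below 0 after CIT with sgCtr. Rps3a1 gave 1241, 1254 and 1299.6 CPM in the unstimulated libraries and 1286, 1276 and 1356 CPM after CIT with sgCtr (log2 difference 0.05 ± 0.02 SE, adjusted p 0.14). Fau, which encodes a ribosomal protein fused to a ubiquitin-like sequence, had a log2 difference of 0.06 ± 0.04 SE.

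Of 10 paralogs with symbols of their own 7 were tested. Rps27l, a paralog of Rps27 known as a p53 target, gave 137, 133 and 132 CPM in the unstimulated libraries and 123, 118 and 123 CPM after CIT with sgCtr. With sgNop16 it gave 127, 133 and 128 CPM in the unstimulated libraries and 145, 139.6 and 149 CPM after CIT. It fell without overlap with sgCtr (log2 difference -0.14 ± 0.04 SE, adjusted p 0.0028) and rose without overlap with sgNop16 (log2 difference 0.16 ± 0.04 SE, adjusted p 0.0013). The interaction was called (log2 difference 0.30 ± 0.05 SE, adjusted p 0.0018), as was the guide difference after CIT (log2 difference 0.25 ± 0.04 SE, adjusted p 9.5e-05). Rps27 itself was not called in any comparison, on its own row or with copies. Rpl36al fell with sgCtr (log2 difference -0.32 ± 0.04 SE, adjusted p 4.5e-07) and with sgNop16 (log2 difference -0.17 ± 0.04 SE, adjusted p 0.0014), whereas Rpl36a was not called in either. Rpl22l1, the paralog that can replace Rpl22, rose with sgCtr from 46.6, 56.7 and 63.9 to 74.3, 72.99 and 76.9 CPM (log2 difference 0.42 ± 0.14 SE, adjusted p 0.032) while Rpl22 fell. That call of Rpl22l1 was lost without sgCtr_no replicate 1 or 2 or any 1 of the sgCtr_CIT libraries (adjusted p up to 0.093). With sgNop16 Rpl22 fell as well, but Rpl22l1 was not called. Rpl7l1 fell by 9.16% with sgCtr (log2 difference -0.14 ± 0.04 SE, adjusted p 0.0053). Rps27rt, Rpl37rt and Rpl39l were not called in any comparison. Rps27rt and Rpl37rt are also the largest near-identical copies of Rps27 and Rpl37, and entered their sums with copies. Rps27rt differed widely within groups, with 133, 46.55 and 56.3 CPM in sgNop16_no, so its lack of a call says little.

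The counts of the lists that follow are read against 21.1% of all genes and 56.6% of abundant genes lower after CIT with sgCtr, and 18.5% and 51.3% with sgNop16. Other messenger RNAs of the TOP class encode translation factors and nucleolar proteins. Of 19 coding genes outside the ribosome 15 were lower after CIT with sgCtr and 12 lower and 1 (Eif3f) higher with sgNop16, with medians of -0.16 and -0.09. Npm1, the nucleolar chaperone nucleophosmin, fell most, from 3236, 3179.6 and 3226 to 2419, 2413 and 2430.5 CPM (log2 difference -0.41 ± 0.02 SE, adjusted p 6.7e-13). Eef1d and Naca, of elongation and of the nascent chain complex, fell by 18.2% and 17.9%. Of the snoRNA host genes of this class all 7 tested were lower with sgCtr, median -0.35, and 6 of 7 with sgNop16, median -0.22. Snhg1 went from 134, 135 and 142 to 100.4, 95.9 and 97.1 CPM with sgCtr (log2 difference -0.49 ± 0.04 SE, adjusted p 9.7e-10), without overlap.

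Dedicated chaperones hold free ribosomal proteins until they are built in. Of 8 such partners 7 were lower after CIT with sgCtr, median -0.40, and 6 with sgNop16, median -0.24. Rrs1, which brings the Rpl5 and Rpl11 particle to the large subunit, gave 105, 100.1 and 109 CPM in the unstimulated libraries and 70.4, 75.98 and 72.97 CPM after CIT with sgCtr (log2 difference -0.52 ± 0.05 SE, adjusted p 1.5e-08). Grwd1, the chaperone of Rpl3, fell by 27.8% and 25.5% with sgCtr and sgNop16, whereas Rpl3 was not called in either. Pdcd2, a partner of Rps2, fell by 38.9% with sgCtr (log2 difference -0.71 ± 0.14 SE, adjusted p 0.00018). With sgNop16 it was not called (log2 difference -0.11 ± 0.14 SE, adjusted p 0.61), and the interaction was not called either (log2 difference 0.60 ± 0.19 SE, adjusted p 0.11). No chaperone was called between guides without CIT, and 1 was called higher after it, Heatr3, a partner of Rpl5 (log2 difference 0.14 ± 0.04 SE, adjusted p 0.042). Its call was lost without sgCtr_CIT replicate 2 or 3 or any 1 of the sgNop16_CIT libraries (adjusted p up to 0.23).

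Regulators of TOP translation and transcription factors of these promoters completed the lists, read against the same shares. Among 13 genes of mTORC1, its targets and LARP proteins 7 were lower and 1 higher with sgCtr. Eif4ebp1, a repressor of cap-dependent initiation, went from 25.2, 27.2 and 24.9 to 11.8, 11.1 and 11.4 CPM (log2 difference -1.18 ± 0.10 SE, adjusted p 1.4e-09), and Larp1, the TOP-binding protein, fell by 25.3% (log2 difference -0.42 ± 0.03 SE, adjusted p 8.9e-12). Mtor was not called (log2 difference 0.03 ± 0.05 SE, adjusted p 0.64), and Tsc1, an upstream inhibitor, rose (log2 difference 0.23 ± 0.06 SE, adjusted p 0.0018). Of 8 transcription factors 5 fell and 1 rose, Gabpa, a subunit of GABP (log2 difference 0.10 ± 0.04 SE, adjusted p 0.034), a call lost without sgCtr_no replicate 1 or 3 or any 1 of the sgCtr_CIT libraries (adjusted p up to 0.14). Myc, which drives ribosome production, gave 454, 449 and 462 CPM in the unstimulated libraries and 204, 198 and 189.6 CPM after CIT with sgCtr. With sgNop16 it gave 463, 467 and 458 CPM in the unstimulated libraries and 239, 251 and 244 CPM after CIT. It fell in both, and less with sgNop16 (log2 difference 0.29 ± 0.04 SE, adjusted p 0.00029 for the interaction). In the p53 list Trp53 fell with both guides, by 24.7% and 14.1%, and Mdm2 and Mdm4 rose with both (log2 difference 0.24 ± 0.05 SE, adjusted p 0.00089 for Mdm2 and log2 difference 0.41 ± 0.04 SE, adjusted p 2.9e-09 for Mdm4 with sgCtr). Cdkn1a, a p53 target, rose with sgNop16 (log2 difference 0.53 ± 0.12 SE, adjusted p 0.00069) and was higher with that guide after CIT (log2 difference 0.73 ± 0.12 SE, adjusted p 0.00026).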

How the data were processed

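RNA-seq was made from 12 libraries of 1 cell line with a directional kit on total RNA, per the labels' protocols. HISAT2 2.2.1, StringTie 2.2.1 and GRCm39 are named in the submitters' processing notes, without roles. The authors deposited 1 table of estimated counts per gene, whole numbers as deposited. Sources used here do not give the annotation, the strand setting or any scaling. Among low counts the value 4 is over-represented, so 1 fragment may be worth more than 1 count, and no counting error was computed. Gene names came from GENCODE M21 for 51948 of 56941 identifiers. The 76 ribosomal protein genes, the lists of other genes and the rule for naming genes were chosen with earlier results of these data known.

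One edgeR 4.0.16 quasi-likelihood model (R 4.3.3, TMM factors, robust estimation) held the 4 groups, and Benjamini-Hochberg adjustment ran over the 16794 genes that passed its low-count filter. In each comparison up to 8 called members each way with the largest change were named, or the 4 of smallest p where none was called. The highest and lowest 5 per length and 13 members of known role were named as well. Alternatives were other scaling and filters, DESeq2 1.42.0, a replicate block, copies added to members, and each library left out. The fit was tested on simulated counts with genes of varied abundance changed in sgCtr_CIT. It recovered 33 of 67 genes changed 1.25-fold, 59 of 67 changed 1.5-fold and 64 of 66 changed 2-fold, with 5 false calls. Smaller changes, such as most of those of the members, were not simulated. Members that overlap another gene on their own strand (27) or the opposite strand (18) may share counts with it. P-values measure the spread between these samples, which may be in part technical. Promoter windows came from RefSeq (GRCm38.p6). Values of some single genes are not reported here, while counts and medians cover all 76.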

Additional observations from a re-analysis of the deposited data

Results flagged for a closer look

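In 5 genes of the related lists the response to CIT differed between guides by the interaction test of edgeR. Each time the difference was in the direction of a higher value with sgNop16. They were 2 of 19 coding TOP genes, 1 of 7 paralogs, 1 of 8 transcription factors and 1 of 4 genes of the p53 list. In the other lists, 0 of 3 ribosomal protein genes outside the rule, 7 snoRNA hosts, 13 translation regulators and 8 chaperones were called. For scale, the interaction test picked out 1.23% of the 16794 genes in the direction of a higher value and 1.6% in the opposite one. At 200 CPM or more the shares were 8.08% and 7.58%. Among cell type markers, counted apart from the related lists, 2 of 7 B cell genes and 1 of 3 tested macrophage genes were called lower. In those marker sets 0 were called higher. For Rps27l, a p53 target, the log2 difference between the responses was 0.30 ± 0.05 SE (adjusted p 0.0018), with a fall in sgCtr and a rise in sgNop16 cells. For Myc it was 0.29 ± 0.04 SE (adjusted p 0.00029), a smaller fall with sgNop16. Both calls held in all alternatives. For Trp53, the gene of p53, it was 0.19 ± 0.05 SE (adjusted p 0.023). For Npm1 it was 0.13 ± 0.03 SE (adjusted p 0.029). For Eif3l, a subunit of the initiation factor that binds the small subunit, it was 0.15 ± 0.04 SE (adjusted p 0.034). The call of Trp53 was lost without replicate 1 of sgCtr_no, 2 of sgCtr_CIT, 2 of sgNop16_CIT or any 1 of sgNop16_no, that of Npm1 without any library except sgNop16_no replicate 3 and sgNop16_CIT replicate 1, and that of Eif3l without any except sgNop16_CIT replicate 1. Their adjusted p then went up to 0.11, 0.14 and 0.11.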

How the results depend on the processing

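Depth is high for these genes, so the spread between 3 libraries and the split of counts with near-identical copies limit precision. Of the 42 genes called lower after CIT with sgCtr 31 were called in every alternative, and of the 29 with sgNop16 14 were. No called member changed sign in any alternative. Without 1 library, lower calls after CIT numbered 35 to 44 with sgCtr and 16 to 30 with sgNop16, and higher calls 1 to 2 with either. Between guides, lower calls numbered 2 to 6 without CIT and 2 to 4 after it, higher calls 0 and 1 to 2, and interaction calls 0 to 1. Higher calls after CIT were 2 with library totals alone for either guide, 2 with sgCtr and 4 with sgNop16 under a filter of 5 CPM in 3 libraries, and 2 with sgNop16 for counts divided by 4. Library totals alone gave 18 lower calls with sgNop16, and 1 higher between guides without CIT. DESeq2 gave 12 lower and 1 higher between guides without CIT, 8 lower and 3 higher after CIT, and 3 interaction calls. Fits of only the groups compared gave 3 lower calls without CIT and 2 higher after it. Counts divided by 4 gave 2 higher between guides after CIT, and a fit without robust estimation 3 lower. That last setting, near-identical copies and median transcript length were chosen after seeing the data. The share of counts without mitochondrial genes in the total was 7.19%, 6.90%, 7.10% and 6.85% in sgCtr_no, sgCtr_CIT, sgNop16_no and sgNop16_CIT. The effect of adding ribosomal protein genes outside the naming rule is not reported. Median transcript length gave medians per length of 1692 (large) and 2348 (small).

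Signs changed for differences that were not called, most of them near 0. After CIT with sgCtr the log2 difference of Rplp1 was 0.0276 with library totals, 0.0147 under the 5 CPM filter, 0.0023 with DESeq2 and 0.000933 for counts divided by 4, and that of Rplp2 0.0200 and 0.0072 in the first 2 of these. With copies Rps27a gave -0.0203. Between guides without CIT, library totals gave 0.0077 for Rpl11 and 0.0019 for Rps19. After CIT Rpsa gave -0.0075, -0.0046, -0.0059, -0.0049 and -0.00058 with library totals, the 5 CPM filter, only the groups compared, DESeq2 and division by 4. For the interaction Rpl5 gave 0.0364 with copies and Rplp2 0.0025 with no filter. Rps20 gave -0.00088, -0.0204, -0.0070, -0.0040, -0.00096 and -0.0047 with RLE factors, library totals, the 5 CPM filter, DESeq2, division by 4 and copies, and Rpl3 -0.0151 and -0.0017 with library totals and the 5 CPM filter. Leaving out 1 library moved Rplp1 between -0.038 and 0.021, Rplp2 between -0.044 and 0.031 and Rps27a between -0.076 and 0.333 after CIT with sgCtr, and Rplp2 between -0.076 and 0.047 with sgNop16. Between guides without CIT it gave -0.086 to 0.0055 for Rpl5, -0.016 to 0.0012 for Rpl11, -0.0034 to 0.074 for Rplp2, -0.038 to 0.034 for Rps19 and -0.011 to 0.435 for Rps27a. After CIT it gave -0.029 to 0.045 for Rplp1, -0.034 to 0.085 for Rplp2 and -0.010 to 0.020 for Rpsa. For the interaction it gave -0.081 to 0.011 for Rpl5, -0.060 to 0.062 for Rplp2, -0.063 to 0.0054 for Rpl22, -0.022 to 0.023 for Rps20 and -0.024 to 0.019 for Rpl3. The cause of these changes was not tested.

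Libraries of different groups share replicate numbers. Deviations of same-numbered libraries correlated between -0.221 and 0.179, and those of differently numbered ones between -0.189 and 0.267. Between the 2 groups after CIT, same-numbered pairs gave 0.0339 to 0.174 and other pairs -0.189 to 0.0394. Correlations over 3 libraries per group cannot settle whether the numbers pair libraries, and the main fit did not use the numbers. With a replicate block in the model the lower calls were 42, 29, 5 and 6 after CIT with sgCtr, after CIT with sgNop16, between guides without CIT and between guides after CIT.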
